A study of Mus musculus with 48 samples.

Results

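The circadian clock genes Arntl, Clock, Per1, Per2, Per3, Cry1, Cry2, Nr1d1, Dbp and Tef were followed through 48 RNA libraries of mouse mammary gland. They were chosen by symbol, as 10 of the 55487 genes in the table, and all 10 were found once and passed the filter for testing, which kept 20209 genes. Whole thoracic glands were used. All mice had a responder transgene and MMTV-rtTA, in which the promoter of a mammary tumour virus drives an activator that works when doxycycline is given, so induction reaches the cells in which that promoter is active. In MMTV-rtTA/tet-op-Esr1 mice the responder is Esr1, the estrogen receptor alpha gene, and in MMTV-rtTA/tet-op-CYP19A1 mice it is CYP19A1, the gene of aromatase, which makes estrogens. Each model has 8 groups of 3 libraries. Induced glands had 1 week of induction at 12 or 18 months of age, 6 or 12 months of induction at 24 months, or 18 months of induction at 30 months. Uninduced glands of the same genotypes, which carry both transgenes too, were taken at 12, 18 and 24 months. The titles speak of biological replicates but not of separate mice, so the p-values reflect library-to-library spread alone. The hour of day at which glands were taken is not in the labels, and no group had doxycycline without a responder.

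The clock of mammalian cells is a loop of transcription and repression that runs in most tissues, the mammary gland included. The proteins of Arntl (also called BMAL1) and Clock bind E-box sequences as a pair and activate the Per and Cry genes, Nr1d1, Dbp and Tef. PER and CRY proteins return to the nucleus and repress that pair. The nuclear receptor encoded by Nr1d1 (REV-ERB alpha) represses Arntl through RORE sequences, which ROR receptors use to activate it, and DBP and TEF bind D-box sequences. In mouse tissues sampled round the clock, Arntl therefore peaks at about the opposite time of day from Dbp, Tef, Nr1d1 and the Per genes, while Cry1 peaks later than the other repressors.

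The sequences these proteins bind can be read in the gene starts. RefSeq promoter windows (GRCm38.p6, 250 bases before to 50 after a start) were at hand for 9 of the 10 genes, in 14 windows. Both strands were searched for the E-box CACGTG, its variant CACGTT, the D-boxes TTATGTAA and TTACGTAA, and the RORE. An E-box stood in the windows of Per1, Cry1 and Tef, its variant in those of Cry1, Cry2 and Nr1d1, 2 D-boxes in that of Per3 and a RORE in that of Arntl, while those of Clock and Dbp had none of the motifs. Of 32851 windows of all genes, 7.15% held the E-box, 4.68% its variant, 1.06% a D-box and 0.384% a RORE. The stretches below, chosen to show an E-box, its variant, D-boxes and a RORE in clock genes, are 5′ to 3′ on the strand of the gene, with motif letters in capitals. For Per1 (chr11:69098699-69098948, + strand), Per3 (chr4:151044666-151044915, - strand), Cry1 (chr10:85185055-85185304, - strand) and Tef (chr15:81802423-81802672, + strand) they are the 250 bases before the start. For Arntl (chr7:113207528-113207557, + strand) they are 30 bases around the RORE.
Arntl: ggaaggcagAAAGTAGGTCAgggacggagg
Per1: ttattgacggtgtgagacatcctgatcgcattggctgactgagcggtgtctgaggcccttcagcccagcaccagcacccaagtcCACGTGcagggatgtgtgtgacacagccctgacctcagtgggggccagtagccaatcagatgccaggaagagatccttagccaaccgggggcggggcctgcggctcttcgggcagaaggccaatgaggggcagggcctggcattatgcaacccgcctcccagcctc
Per3: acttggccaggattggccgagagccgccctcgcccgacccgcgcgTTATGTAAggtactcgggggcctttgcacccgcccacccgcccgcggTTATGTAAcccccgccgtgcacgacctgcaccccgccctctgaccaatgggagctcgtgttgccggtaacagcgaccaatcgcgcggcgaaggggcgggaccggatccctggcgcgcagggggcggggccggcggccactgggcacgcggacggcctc
Cry1: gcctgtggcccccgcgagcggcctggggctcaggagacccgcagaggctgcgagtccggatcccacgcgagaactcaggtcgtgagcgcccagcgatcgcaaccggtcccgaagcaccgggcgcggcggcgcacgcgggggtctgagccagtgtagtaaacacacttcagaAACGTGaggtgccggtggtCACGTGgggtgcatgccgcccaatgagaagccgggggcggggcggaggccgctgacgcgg
Tef: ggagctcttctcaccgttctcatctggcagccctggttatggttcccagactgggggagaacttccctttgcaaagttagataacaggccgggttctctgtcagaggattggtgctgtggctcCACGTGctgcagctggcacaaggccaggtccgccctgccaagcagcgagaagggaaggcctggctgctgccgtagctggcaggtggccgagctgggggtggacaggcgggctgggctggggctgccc
The Per1 E-box lies 166 bases and the Tef E-box 127 bases before the start, and the Arntl RORE begins 27 bases into the transcript. The match is of letters, and no binding was measured.

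Values are TPM, transcript counts scaled for length and library, which sum to 1000000 in every library and keep no depth (the labels state at least 50 M reads per library). Between 11028 and 17605 genes reached 1 TPM. Reads from ribosomal RNA that fall on CT010467.1, AY036118 and Lars2 took over 10% of TPM in 9 libraries, 7 of them from the CYP19A1 model and 6 of those at 12 or 18 months. Such reads take a share of TPM from all other genes together, up to 67.2% of the total in uninduced 12-month CYP19A1 replicate 1. Results are therefore given also without these 9 libraries, and on TPM rescaled by median-of-ratios factors (0.312 to 1.46). A low factor marks a library in which most genes are low. It was 0.312 in that replicate 1, but 1.17 in replicate 3 of the same group (22.2% on these copies). In uninduced 24-month CYP19A1 replicate 3 (15.6%) it was 0.973. Not all of the 9 libraries were thus low in most genes. In the Esr1 model, mouse Esr1 was at 17.9 ± 6.93 TPM after 1 week of induction at 18 months and at 11.8 ± 3.11 TPM without (SD, n = 3 each). At 12 months the values were 14.63 ± 3.77 and 11.98 ± 2.6 TPM. At 24 months Esr1 was at 11.32 ± 2.16 TPM after 6 months of induction and 10.48 ± 3.78 TPM after 12 months, against 13.35 ± 2.91 TPM without. Its mean was thus not higher in long-induced glands of 24 months. It lay between 5.61 and 25.9 TPM over all libraries. Mouse Cyp19a1 stayed at or below 0.29 TPM. The sources used here do not say whether reads of the CYP19A1 transgene fall on that mouse gene. The glands held luminal epithelium (8 markers summed to 85.3 to 898 TPM), white fat (10 markers, 2310 to 9521 TPM) and skeletal muscle (10 markers, 163 to 42000 TPM), with no marker of these lists at 0 in any library. In whole tissue, fewer cells of a type and less RNA per cell cannot be told apart.

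All 10 clock genes were expressed in the aged gland, at levels that spanned an order of magnitude. Tef, a PAR leucine zipper factor driven by the clock, was the most abundant, with a lowest, median and highest level of 20.1, 49.0 and 92.7 TPM over the 48 libraries. Dbp, its close relative, ran from 10.8 through 26.6 to 65.8 TPM and Nr1d1 from 9.84 through 25.4 to 37.6 TPM. Clock lay at 4.08, 14.6 and 20.6 TPM, Per3 at 5.58, 14.3 and 32.7 TPM, Per1 at 3.19, 13.7 and 39.7 TPM and Cry2 at 4.68, 12.5 and 21.3 TPM. The scarcest were Per2 (2.51, 6.78 and 23.5 TPM), Arntl (0.75, 3.49 and 9.34 TPM) and Cry1 (0.66, 3.07 and 6.18 TPM). Uninduced 12-month CYP19A1 replicate 1, the library with the most ribosomal RNA, held the lowest value of Clock, Per1, Per3, Cry1, Cry2, Nr1d1 and Tef. TPM are per transcript length, so levels of these genes may be set side by side.

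The 10 genes lie on 8 chromosomes in mm10 (positions from GENCODE M21). Arntl (ENSMUSG00000055116.8, chr7:113207465-113314126) and Dbp (ENSMUSG00000059824.12, chr7:45705088-45710203) share chromosome 7, and Per1 (ENSMUSG00000020893.17, chr11:69095217-69109960) and Nr1d1 (ENSMUSG00000020889.11, chr11:98767932-98775333) share chromosome 11. Nr1d1 overlaps Thra on the opposite strand by 1075 bases, Dbp overlaps Sphk2 likewise by 737 bases, and Per3 lies within Camta1 on the same strand. Libraries were stranded, but whether strand was used in counting is not given in the sources used here, so reads in these overlaps may be shared.

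**Figure D1:**
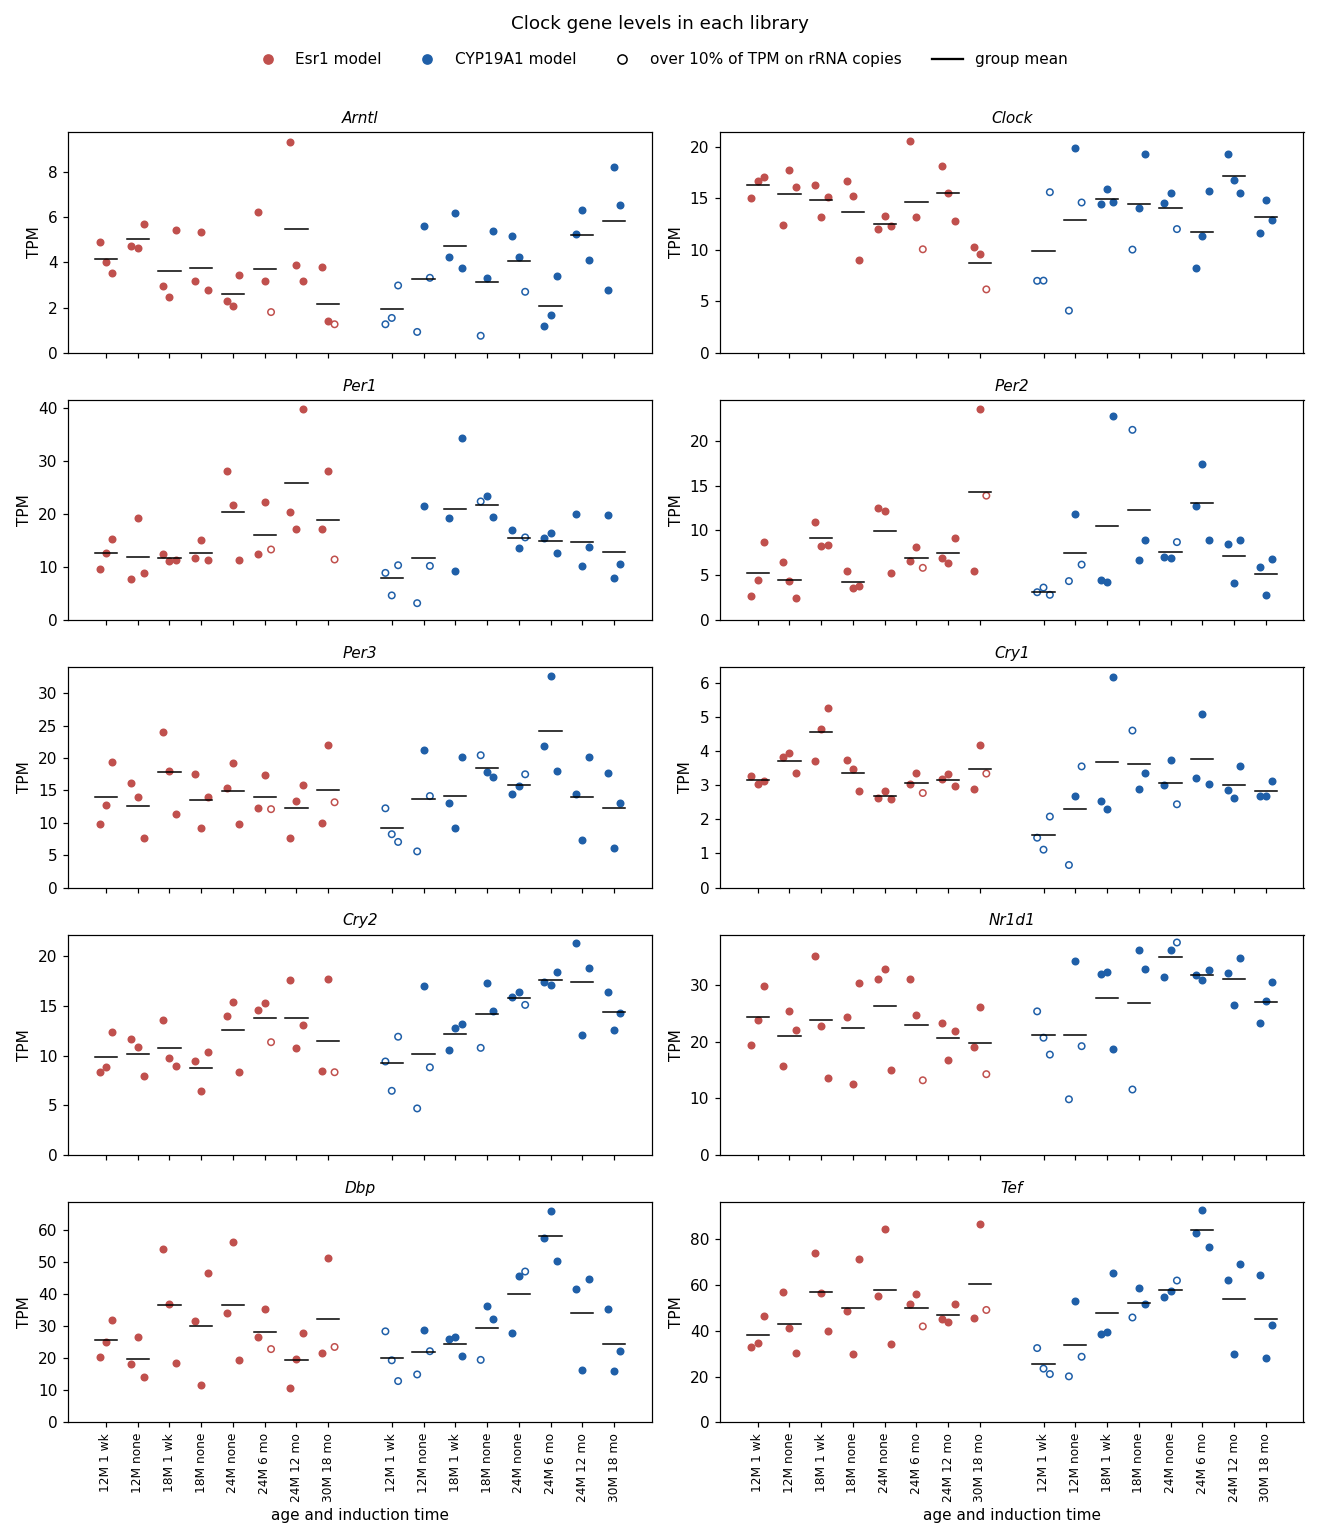
TPM (vertical axis, linear, from 0) of the 10 clock genes in each library, by group along the horizontal axis. Points are libraries (red for the Esr1 model, blue for the CYP19A1 model, open where over 10% of TPM fell on ribosomal RNA copies) and lines are means of 3 libraries. Libraries of 1 group are often as far apart as the groups, as for Dbp after 12 months of Esr1 induction, at 10.8, 19.6 and 27.7 TPM.

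The clock genes varied more within groups than most genes did. The within-group SD of log2(TPM + 1) was 0.60 for Per2, 0.57 for Dbp, 0.57 for Per1, 0.55 for Arntl and 0.51 for Per3, against a median of 0.39 over 11613 protein-coding genes with a mean of at least 2 TPM. Those SDs were above 91.8%, 90%, 89.6%, 87.9% and 84.4% of these genes. Nr1d1 was above 81.1%, Tef above 70.3%, Clock above 59.7%, Cry2 above 39% and Cry1, at 0.30, above 7.16%. The share of variance that lay between groups ran from 28.3% (Nr1d1) to 51.5% (Tef), with a median of 46.5% over the same genes. Ordered by mean, the 16 groups gave 15 steps between neighbours for each gene, and at most 2 of those steps (Per2) were larger than the wider SD of the pair. The order of neighbouring groups was thus mostly within their spread.

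Whether any group differed was asked first by an F test over the 16 group means (limma on log2(TPM + 1), Benjamini-Hochberg over 20209 genes). It called 4489 genes, 22.2% of those tested, and 0 of the 10 clock genes. At an unadjusted p under 0.05 it passed 40.7% of all genes and 4 clock genes. Their adjusted p were 0.0709 for Tef, 0.0710 for Per2, 0.0897 for Cry1 and 0.102 for Cry2, with 0.166 for Arntl, 0.18 for Dbp and 0.629 for Nr1d1. This count rests on single libraries. Without uninduced 12-month CYP19A1 replicate 2, 5 clock genes were called (Per1, Per2, Cry1, Cry2 and Tef), among 9367 genes. Without replicate 1 of that group 4 were called (Per2, Cry1, Cry2 and Tef), among 13286, and without replicate 3, Cry1 alone, among 5847. Replicates 1 and 3 are high in ribosomal RNA, whose part in these calls was not tested. Leaving out uninduced 24-month Esr1 replicate 3 gave calls of Per2 and Tef, among 4568 genes. Per2 and Cry1 were called without replicate 3 after 1 week of CYP19A1 induction at 18 months, among 4106. Tef was called without uninduced 18-month Esr1 replicate 3 (among 6295) or replicate 2 after 12 months of CYP19A1 induction (among 4246). Per2 was called without replicate 1 after 18 months of Esr1 induction, among 4516. On rescaled TPM, Per1 and Cry2 were called, where 37.1% of 19678 genes were.

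No clock gene was called for induction of Esr1. After 1 week at 12 months 0 of 10 passed (limma adjusted p, 0 also at an unadjusted p under 0.05), where 0.0099% of all genes did. After 1 week at 18 months 0 of 10 passed, with 0% of all genes, and Per2 alone was under 0.05 before adjustment, as were 1.25% of all genes. Per2, a core repressor, was at 10.9, 8.22 and 8.4 TPM in these induced glands, against 5.45, 3.59 and 3.82 TPM in uninduced 18-month glands. All 3 induced libraries lay above all 3 uninduced ones, which held for 4.26% of all genes. The log2 change was 0.95 (95% interval 0.00 to 1.90, adjusted p = 1). After 6 months 0 of 10 passed, with 0% of all genes, and after 12 months 0 of 10, with 0.00495% of all genes (0 of 10 unadjusted in both). Arntl after 12 months was at 9.34, 3.9 and 3.17 TPM, against 2.31, 2.07 and 3.45 TPM in uninduced 24-month glands, with a log2 difference of 0.74. Dbp was at 10.8, 19.6 and 27.7 TPM there, against 34.0, 56.0 and 19.4 TPM without induction, with a log2 difference of -0.85. The 1 library with Arntl at 9.34 TPM is also the 1 with Dbp at 10.8 TPM, the highest and the lowest value of the study.

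No clock gene was called for induction of CYP19A1 either. After 1 week at 12 months 0 of 10 passed (0 unadjusted), with 0% of all genes. Without uninduced replicate 1, however, 12421 genes were called there, Clock, Per2 and Cry1 among them, in a comparison whose 3 induced libraries had 36.7% to 49.8% ribosomal RNA copies. Per2 was at 3.11, 3.63 and 2.82 TPM in those induced glands, against 4.35, 11.8 and 6.19 TPM in uninduced ones. After 1 week at 18 months 0 of 10 passed (0 unadjusted), with 0% of all genes.

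After 6 months of CYP19A1 induction 0 of 10 passed (0 unadjusted), with 0% of all genes, but 5 of the 10 genes had groups that did not overlap, all higher in induced glands. Over all genes tested, 2.2% were higher without overlap there and 2.11% lower. The 6 brown adipocyte markers summed to 364 to 529 TPM in induced glands, against 210 to 303 TPM in uninduced ones, also without overlap (list median log2 difference 0.87, 0 of 6 passed). Over all 48 libraries this sum had a mean of 271.9 TPM. Most of it was Cox8b (mean 132.5 TPM) and Cox7a1 (75.35 TPM), with Ucp1 at 38.61 TPM. The 10 skeletal muscle markers summed to 17920 to 33720 TPM in these induced glands, against 16650 to 25880 TPM in uninduced ones. The part of both lists in the clock genes' values was not tested. Dbp was at 57.4, 65.8 and 50.3 TPM in induced glands, against 27.7, 45.7 and 46.9 TPM in uninduced 24-month glands (log2 difference 0.55, 95% interval -0.37 to 1.46). Tef was at 83.0, 92.7 and 76.8 TPM, against 55.0, 57.3 and 62.1 TPM in uninduced glands (0.52, interval -0.20 to 1.25). Per3 was at 21.8, 32.7 and 18.0 TPM in induced glands, against 14.4, 15.6 and 17.5 TPM in uninduced ones. Per2 was at 12.7, 17.4 and 8.93 TPM in induced glands, against 7.0, 6.96 and 8.7 TPM. Cry2, a repressor with little rhythm in most mouse tissues, was at 17.4, 17.1 and 18.4 TPM, against 15.9, 16.4 and 15.1 TPM in uninduced glands. Arntl stood the other way, at 1.2, 1.67 and 3.39 TPM in induced glands, against 5.18, 4.26 and 2.7 TPM, with groups that overlapped. The intervals of all these differences include 0. After 12 months 0 of 10 passed (0 unadjusted), with 0.0198% of all genes, and Dbp was at 41.5, 16.2 and 44.7 TPM in those glands. The brown adipocyte markers summed to 317 to 442 TPM there, again above uninduced glands without overlap (list median log2 difference 0.97, 0 of 6 passed). Of the clock genes 0 of 10 had groups without overlap after 12 months, with 7.92% of all genes.

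Age was compared within uninduced glands. In the Esr1 model 0 of 10 clock genes passed at 18 against 12 months (0 unadjusted), with 0% of all genes. At 24 against 12 months 0 of 10 passed, with 0.574% of all genes, and at 24 against 18 months 0 of 10, with 0.336% of all genes, with Per2 under 0.05 before adjustment in both, as were 7.68% and 7.37% of all genes. These comparisons share the 24-month libraries. Per2 was at 12.5, 12.1 and 5.26 TPM at 24 months, against 6.52, 4.41 and 2.51 TPM at 12 months (log2 difference 0.99, adjusted p = 0.602) and 5.45, 3.59 and 3.82 TPM at 18 months (0.99, adjusted p = 0.652). Arntl was at 2.31, 2.07 and 3.45 TPM at 24 months, against 4.73, 4.64 and 5.72 TPM at 12 months, with no overlap and a log2 difference of -0.75 (interval -1.62 to 0.11). Cry1 was at 2.63, 2.84 and 2.59 TPM at 24 months, against 3.83, 3.95 and 3.36 TPM at 12 months, also with no overlap (-0.35, interval -0.87 to 0.16), and 8.61% of all genes were lower without overlap. Titles of 24- and 30-month libraries follow another pattern than those of the younger ages, so a batch at that boundary cannot be told apart from age.

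In uninduced CYP19A1 glands all 10 clock genes had a mean log2 level above that of 12 months at 24 months, and 0 passed, where 4.24% of all genes did. Before adjustment Cry2, Nr1d1 and Tef were under 0.05, as were 14.7% of all genes. Tef was at 55.0, 57.3 and 62.1 TPM at 24 months, against 20.1, 53.0 and 28.7 TPM at 12 months (0.87 ± 0.36 SE, adjusted p = 0.211). Nr1d1 was at 31.5, 36.2 and 37.6 TPM, against 9.84, 34.3 and 19.2 TPM at 12 months (0.86 ± 0.39 SE, adjusted p = 0.274). Cry2 was at 15.9, 16.4 and 15.1 TPM, against 4.68, 17.0 and 8.81 TPM at 12 months (0.75 ± 0.30 SE, adjusted p = 0.201). In each case the 12-month library near the 24-month level is replicate 2, the 1 of that group low in ribosomal RNA. Replicate 3, with 22.2% ribosomal RNA copies, had a median-of-ratios factor of 1.17, so most of its genes were not low. Without replicate 2 of the 12-month group, Cry2, Nr1d1 and Tef were called, among 3374 genes. Without the high-ribosomal-RNA libraries, replicate 2 is the only 12-month library left. The log2 differences of Cry2, Nr1d1 and Tef were then -0.07, -0.02 and 0.08. Without replicate 1 of the 12-month group they were 0.34, 0.43 and 0.56. All 10 skeletal muscle markers were called higher in this comparison, summing to 16650 to 25880 TPM at 24 months, against 529 to 4566 TPM at 12 months, and their part in the clock genes' values was not tested.

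At 18 against 12 months in this model 0 of 10 passed, with 0.0099% of all genes. Per1 (22.3, 23.3 and 19.5 TPM at 18 months, against 3.19, 21.6 and 10.2 TPM at 12 months) and Cry1 (log2 difference 0.59) were under 0.05 before adjustment. Without the high-ribosomal-RNA libraries, replicate 2 is the only 12-month library left. The difference of Per1 was then -0.02 (1.15 with all libraries) and that of Cry1 0.16. Without replicate 1 of the 12-month group alone they were 0.51 and 0.15. Before adjustment 5.61% of all genes were under 0.05 here. At 24 against 18 months 0 of 10 passed (0 unadjusted), with 0.0693% of all genes.

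Glands with 18 months of Esr1 induction at 30 months were set against those with 12 months of induction at 24 months, and here 0 of 10 passed, with 0.139% of all genes. Both genes of the activator pair were under 0.05 before adjustment, as were 15.9% of all genes. Clock was at 10.3, 9.54 and 6.14 TPM at 30 months, against 18.1, 15.5 and 12.8 TPM at 24 months, with no overlap (log2 difference -0.78 ± 0.33 SE, adjusted p = 0.284). Of all genes tested, 35.6% were lower without overlap in this comparison. Arntl was at 3.81, 1.4 and 1.26 TPM, against 9.34, 3.9 and 3.17 TPM at 24 months (-1.01 ± 0.43 SE, adjusted p = 0.284), and the difference was -0.61 without replicate 1 of the 24-month group. The median of all genes was -0.36 in this comparison, and replicate 3 of the 30-month group has 50.3% ribosomal RNA copies. In the CYP19A1 model the same step gave 0 of 10 (0 unadjusted), with 0% of all genes. Clock was at 11.6, 14.9 and 12.9 TPM at 30 months, against 19.3, 16.7 and 15.5 TPM at 24 months, again with no overlap (-0.36, interval -1.04 to 0.31), where 21.6% of all genes were lower without overlap.

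Between the models, 0 of 10 passed for Esr1 against CYP19A1 in uninduced glands (0 unadjusted), with 2.95% of all genes. Without the high-ribosomal-RNA libraries Cry2 was called there, among 2569 genes. In long-induced glands 0 of 10 passed, with 4.15% of all genes. Nr1d1 had a mean of 21.2 TPM in the Esr1 model, against 30.0 TPM in the CYP19A1 model (log2 difference -0.52 ± 0.22 SE, adjusted p = 0.201). It passed when no other groups were fitted (adjusted p = 0.044), among 1594 genes, but was at -0.34 without the high-ribosomal-RNA libraries (adjusted p = 0.37). The response to 1 week of induction differed between the models for 0 of 10, with 0% of all genes. Per2 differed most, by 1.23 on the log2 scale (interval 0.28 to 2.18, adjusted p = 0.548), and was called without uninduced 12-month CYP19A1 replicate 1 (adjusted p = 0.0334), among 6988 genes. The response to long induction differed for 0 of 10 (0 unadjusted), with 0% of all genes.

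Over the 10 genes, of 180 comparisons of 2 groups, 15 had groups that did not overlap, 8 higher and 7 lower, which is 8.33%, against 8.16% over all genes tested. Of all 200 tests 12 were under 0.05 before adjustment, which is 6%, against 6.1% over all genes. Both shares are near those of all genes. The median log2 difference of the 10 was 0.57 for uninduced CYP19A1 glands at 18 against 12 months (0.18 over all genes tested) and 0.55 at 24 against 12 months (0.22). It was 0.25 for 1 week of Esr1 induction at 18 months (0.14 over all genes) and 0.18 for 6 months of CYP19A1 induction (-0.01). For 1 week of CYP19A1 induction at 12 months it was -0.26 (-0.32 over all genes), and for 30 against 24 months of Esr1 0.01 (-0.36).

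**Figure D2:**
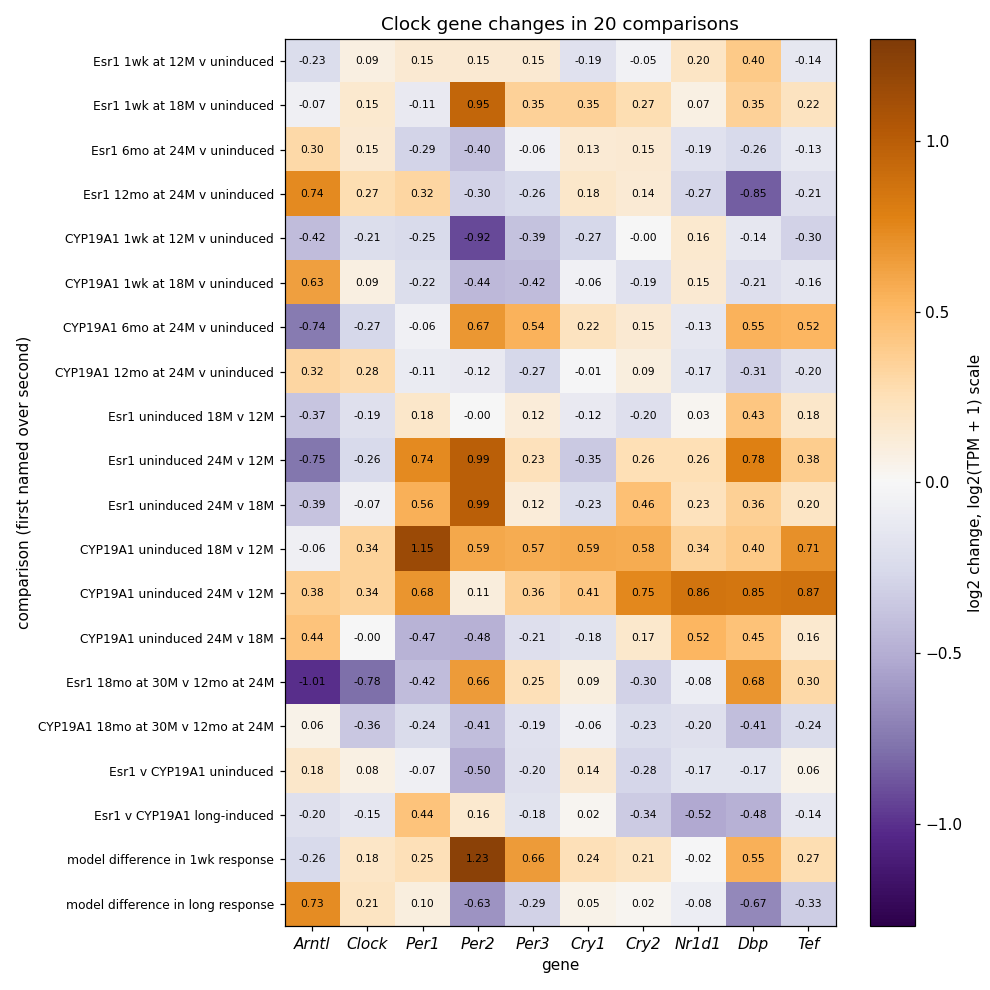
Log2 change on the log2(TPM + 1) scale (colour and number) of each clock gene (columns) in 20 comparisons (rows, first named over second), from the limma fit. The values run from -1.01 for Arntl in 30-month Esr1 glands to 1.23 for Per2 in the model difference, and 0 of the 200 passed at an adjusted p under 0.05.

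Other genes of the clock were read from 4 lists of partners, modifiers and outputs. Of 24 genes tested in 20 comparisons, 1 gene passed once, in a comparison in which 4.24% of all genes passed. It was Usp2, a clock-driven deubiquitinase gene, at 15.2, 13.1 and 21.2 TPM in uninduced CYP19A1 glands of 24 months, against 3.86, 5.17 and 2.92 TPM at 12 months (log2 difference 1.81 ± 0.50 SE, adjusted p = 0.0253), in the comparison in which all 10 muscle markers passed too. Of the activator partners, 0 passed, among them Npas2, which can replace CLOCK, and Rora, with a median of 15.6 TPM. Rorb, at most 0.47 TPM, was not tested. Of the 6 repressor partners 0 passed, among them Nr1d2, the relative of Nr1d1 (median 32.8 TPM), and Bhlhe40, which competes at E-boxes (18.6 TPM). Of the 7 clock kinases and ubiquitin ligases 0 passed, the most abundant by median being the kinase subunit gene Csnk2a1 at 32.4 TPM. Of the 8 outputs Usp2 alone passed.

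Clock genes also varied together from library to library. Over 48 libraries, 45 pairs of clock genes were tested by Pearson r of log2(TPM + 1) with 100000 permutations, adjusted over the pairs. Of these, 29 were positive and 3 negative at an adjusted p under 0.05. The share called among pairs of all genes was not computed. As deposited, the median r over all genes was 0.42 with Arntl (2.86% of genes below 0) and 0.17 with Dbp (16.8%), so positive r was common. The 3 negative ones all joined Arntl, the activator, to genes of the opposite phase. Arntl with Per2 had r = -0.37 (adjusted p = 0.0158) and rho = -0.31 (adjusted p = 0.0538). Arntl with Dbp had r = -0.35 (adjusted p = 0.025) and rho = -0.39 (adjusted p = 0.0142). Arntl with Per3 had r = -0.33 (adjusted p = 0.0346) and rho = -0.38 (adjusted p = 0.0142). Without the 2 libraries farthest from the median of Arntl these r were -0.36, -0.51 and -0.45.

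For the Arntl and Dbp pair, of the 16 libraries lowest in Arntl, 10 were among the 16 highest in Dbp and 3 among the 16 lowest. Of the 16 highest in Arntl, 8 were among the lowest in Dbp and 1 among the highest. The ratio of Dbp to Arntl ran from 1.15 in replicate 1 after 12 months of Esr1 induction (10.8 over 9.34 TPM) through a median of 8.33 to 47.9 in replicate 1 after 6 months of CYP19A1 induction (57.4 over 1.2 TPM). Within single groups it also differed widely. In uninduced 18-month Esr1 glands Arntl was at 3.2, 5.35 and 2.78 TPM and Dbp at 31.6, 11.5 and 46.5 TPM in the same libraries. At 30 months of CYP19A1 Arntl was at 2.76, 8.24 and 6.56 TPM and Dbp at 35.4, 15.9 and 22.1 TPM. In both groups the library highest in Arntl is lowest in Dbp, and the reverse.

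**Figure D3:**
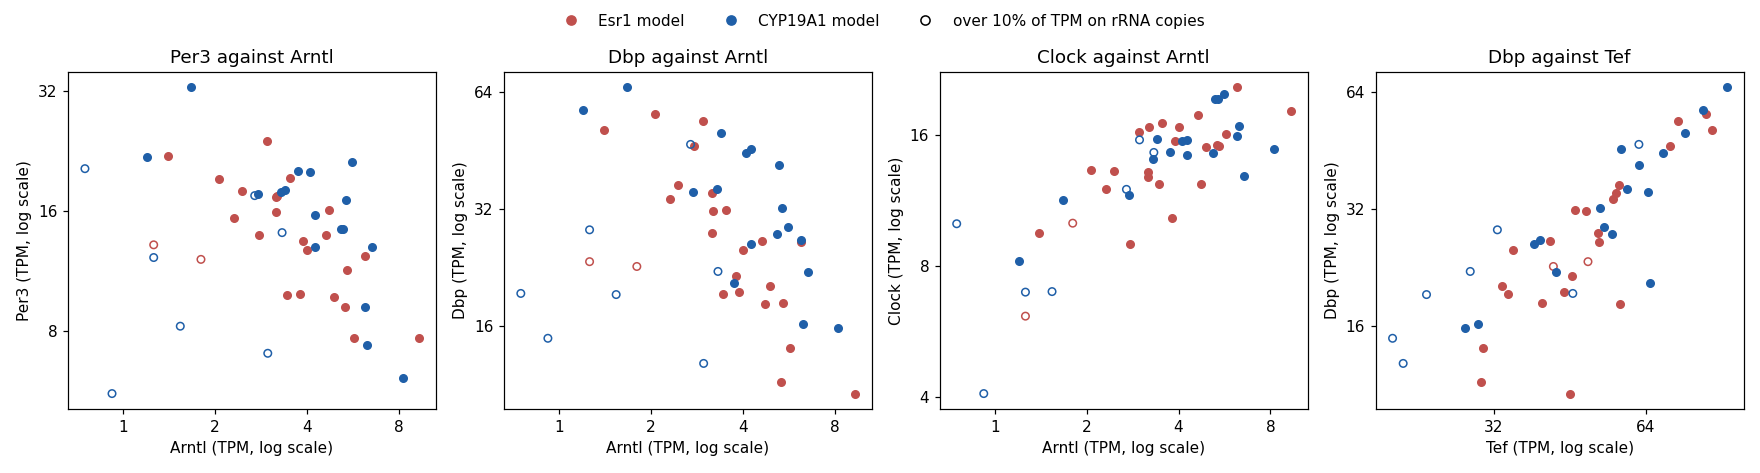
TPM on log axes of 1 clock gene against another, 1 point per library (red for the Esr1 model, blue for the CYP19A1 model, open where over 10% of TPM fell on ribosomal RNA copies). Per3 and Dbp fall as Arntl rises among the filled points, with some open points below that band and others within it. Clock with Arntl and Dbp with Tef rise together (r = 0.79 and 0.82 over 48 libraries).

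Over all libraries the negative relations were larger in size on rescaled TPM and without the libraries high in ribosomal RNA. On rescaled TPM 23 pairs were positive and 11 negative, and r was -0.80 for Arntl with Per3, -0.65 with Dbp, -0.62 with Per2, -0.54 with Tef and -0.41 with Per1. With group means also subtracted and values permuted within groups, 20 pairs were positive and 10 negative, with r = -0.81 for Arntl and Per3 and -0.61 for Arntl and Dbp. Without the 9 high-ribosomal-RNA libraries (n = 39) Arntl had r = -0.74 with Dbp, -0.72 with Per3, -0.70 with Tef, -0.57 with Per2 and -0.36 with Per1. As deposited, with group means subtracted, 24 pairs were positive and 0 negative, with r = -0.34 for Arntl and Dbp (adjusted p = 0.0659). With a replicate block removed as well, still permuted within groups, Arntl passed with Dbp (-0.36) and Per2 (-0.38, adjusted p = 0.0461 each). Arntl with Per3 did not pass there (-0.36, adjusted p = 0.0698). On that scale the within-group calls thus depended on the setting. Single libraries also decide the pooled calls. The pair with Dbp was lost without Esr1 12-month-induction replicate 1 (r = -0.28, adjusted p = 0.0749) or CYP19A1 6-month-induction replicate 1 (-0.31, adjusted p = 0.0515), that with Per2 without uninduced 18-month CYP19A1 replicate 1 (-0.30, adjusted p = 0.0591), and that with Per3 without any 1 of 8 libraries (r -0.30 to -0.27, adjusted p 0.0527 to 0.0903). The 8 are uninduced 12-month Esr1 replicate 3, Esr1 12-month-induction replicate 1, Esr1 18-month-induction replicate 2, uninduced 18-month CYP19A1 replicate 1, CYP19A1 6-month-induction replicates 1 and 2, CYP19A1 12-month-induction replicate 2 and CYP19A1 18-month-induction replicate 2.

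The relation was also computed within model and age blocks of 12 libraries each. Arntl with Dbp had r = -0.90 in Esr1 glands of 12 and 18 months (p = 4e-05, permutation), -0.65 in Esr1 glands of 24 and 30 months (p = 0.0224) and -0.84 in CYP19A1 glands of 24 and 30 months (p = 0.00078). In CYP19A1 glands of 12 and 18 months, where 6 of the 12 libraries are high in ribosomal RNA, it was 0.49 (permutation p = 0.102). On rescaled TPM the r of Arntl with Dbp was -0.55 in Esr1 glands of 12 and 18 months (permutation p = 0.0638), smaller in size than as deposited, -0.93 in Esr1 glands of 24 and 30 months and -0.94 in CYP19A1 glands of those ages. On that scale CYP19A1 glands of 12 and 18 months had -0.27 (permutation p = 0.412) for Dbp and -0.89 (permutation p = 5e-05) for Per3. On the same scale Arntl with Per3 had -0.92 in each of the blocks of 24 and 30 months and -0.47 (permutation p = 0.123) in Esr1 glands of 12 and 18 months. These block p-values are not adjusted.

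**Figure D4:**
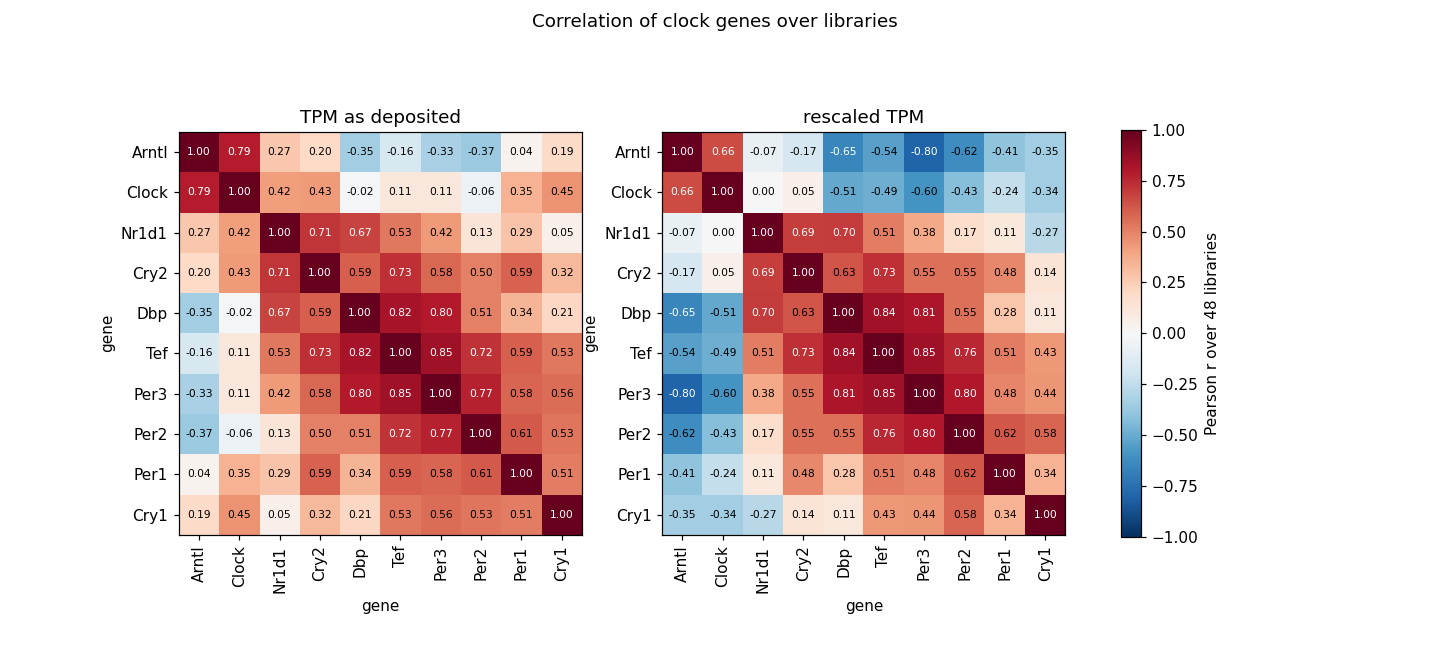
Pearson r (colour and number) of log2(TPM + 1) between clock genes over 48 libraries, on TPM as deposited (left) and rescaled by median-of-ratios factors (right). Arntl and Clock stand against Dbp, Tef and the Per genes on the right, at -0.80 for Arntl and Per3, while Nr1d1, Cry2, Dbp, Tef and the Per genes are mostly positive with each other on both sides.

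Several genes of like phase were positively related. Per3 with Tef had r = 0.85, Dbp with Tef 0.82, Per3 with Dbp 0.80, Arntl with Clock 0.79 and Per2 with Per3 0.77 (adjusted p = 4.1e-05 each, the smallest these permutations give). Each of these kept r between 0.66 and 0.87 on rescaled TPM and with group means subtracted. Cry2 with Tef had 0.73, Cry2 with Nr1d1 0.71 and Nr1d1 with Dbp 0.67. Nr1d1 with Per1 (0.29, adjusted p = 0.0632) and with Per2 (0.13, adjusted p = 0.438) did not pass. Nr1d1 with Arntl had r = 0.27 as deposited (adjusted p = 0.081) and -0.07 on rescaled TPM (adjusted p = 0.658). As deposited it was called positive without uninduced 18-month Esr1 replicate 2 (0.32, adjusted p = 0.0387), Esr1 replicate 3 after 1 week at 18 months (0.32, adjusted p = 0.0406) or CYP19A1 6-month-induction replicate 1 (0.32, adjusted p = 0.0447). Within Esr1 glands of 12 and 18 months it had r = -0.70 (p = 0.0127, permutation) and within CYP19A1 glands of the same ages 0.77 (p = 0.00356), and on rescaled TPM these were -0.33 (permutation p = 0.308) and 0.28 (permutation p = 0.397). Clock with Dbp had r = -0.51 on rescaled TPM (adjusted p = 0.00043) and -0.02 as deposited (adjusted p = 0.908). Cry1 and Dbp had r = 0.21 (adjusted p = 0.203).

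Against the background of all genes some clock partners of Arntl stood at the ends of the scale and others did not. Arntl had a median r of 0.42 with 20208 other genes as deposited, and 2.86% of them were below 0. Clock was the highest of all, and Npas2 the 4th highest. Per2 was the 9th lowest, Dbp the 13th, Per3 the 16th and Ciart, a CLOCK repressor gene, the 25th. Farther in, 25.2% of genes were below Nr1d1, 16.2% below Cry2, 15.9% below Cry1, 13.2% below Nr1d2, 11% below Bhlhe41 and 3.98% below Per1. On rescaled TPM the median was 0.01, and Per3 was the lowest of all, Dbp the 2nd and Per2 the 4th, with Bhlhe41 8th and Nr1d2 9th, both repressors. On that scale 29.1% of genes were still below Nr1d1, 30.7% below Usp2 and 10.7% below Cry2. For Dbp the highest r of all genes were those of Tef, Per3 and Ciart as deposited, with Nr1d1 6th. Its lowest included Npas2 (2nd) and Arntl (5th), and on rescaled TPM Npas2 was the lowest, at r = -0.75. With group means subtracted Npas2 ranked 53 and Arntl 65 from the lowest, and on rescaled TPM so treated 20 and 169. Npas2 is scarce, with a median of 0.89 TPM. These ranks describe the libraries, which share depth and ribosomal RNA content across genes, and carry no test.

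With group means subtracted, the 5 protein-coding genes most like Arntl over 48 libraries were Prr13 (r = 0.79), Clock (0.77), Leo1 (0.77), Rras2 (0.76) and Tnfrsf12a (0.76). The 5 least like it were Lars2 (-0.61), whose reads are mostly ribosomal RNA, Per2 (-0.38), Per3 (-0.35), Dbp (-0.34) and Acsm5 (-0.33). On rescaled TPM, again with group means subtracted, they were Per3 (-0.81), Tspan4 (-0.69), Wee1 (-0.67), a cell cycle kinase gene driven by the clock, Gstt2 (-0.66) and Ctdspl (-0.66). The genes most like Dbp were Tef (0.83), Per3 (0.77), Gpam (0.74), an enzyme gene of triglyceride synthesis, Ciart (0.72) and Dyrk1b (0.71). The least like it were Saa3 (-0.49), Csn1s2b (-0.43), Glycam1 (-0.43), Saa2 (-0.42) and Saa1 (-0.42), genes of serum amyloid, casein and a milk mucin. On rescaled TPM the least like Dbp were other genes, Btaf1 (-0.81), Iqgap1 (-0.76), Actr2 (-0.76), Actr3 (-0.74) and Sat1 (-0.73).

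Per1 moved with targets of the stress hormone receptor. PER1 is a core repressor, and Per1 is also a direct target of the glucocorticoid receptor and an immediate early gene. Its r was 0.77 with the mean log2(TPM + 1) of 8 glucocorticoid-responsive genes (rho = 0.72) and 0.71 with that of 8 immediate early genes (rho = 0.69), each with an adjusted permutation p at the smallest value given (r 0.00012, rho 0.00018) over 36 relations. For Arntl the r with the glucocorticoid list was 0.33 (adjusted p = 0.0512) and for Dbp 0.07 (adjusted p = 0.764). With the immediate early list Arntl passed too (0.42, adjusted p = 0.0121), though not on rescaled TPM (-0.05, adjusted p = 0.908). Dbp had 0.28 with it (adjusted p = 0.11). Of the single genes of the glucocorticoid list, Klf9 had r = 0.81 with Per1, Zbtb16 0.77, Sgk1 0.77, Tsc22d3 0.77, Fkbp5 0.68, Mt1 0.55, Mt2 0.47 and Pdk4 0.43. The r of Per1 with all genes was not computed. The glucocorticoid relation was 0.70 on rescaled TPM, 0.78 without the 2 farthest libraries, 0.62 with group means subtracted (adjusted p = 0.0496) and 0.62 without the high-ribosomal-RNA libraries (adjusted p = 0.00072). Within blocks it was 0.92 in CYP19A1 glands of 12 and 18 months and 0.62 in Esr1 glands of these ages, but 0.45 (permutation p = 0.141) and 0.22 (permutation p = 0.499) in Esr1 and CYP19A1 glands of 24 and 30 months. List genes that passed in a group comparison were Sgk1 (log2 difference 0.96, adjusted p = 0.0484) and Jun (1.20, adjusted p = 0.0156) at 24 against 12 months in uninduced CYP19A1 glands, and Fkbp5 (0.88, adjusted p = 0.0461) and Mt2 (1.29, adjusted p = 0.0442) for Esr1 against CYP19A1 in long-induced glands. The difference between these r and those of Arntl and Dbp was not tested.

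**Figure D5:**
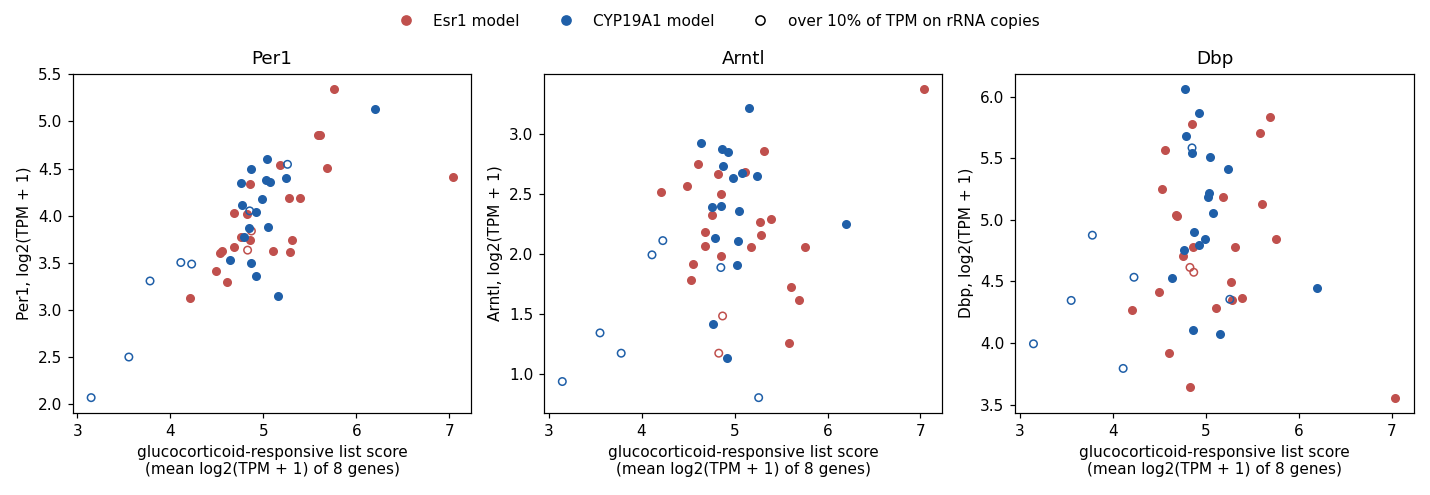
Log2(TPM + 1) of Per1, Arntl and Dbp (vertical axes) against the mean log2(TPM + 1) of 8 glucocorticoid-responsive genes (horizontal axis), 1 point per library, open where over 10% of TPM fell on ribosomal RNA copies. Per1 climbs with the list (r = 0.77), while Arntl (0.33) and Dbp (0.07) scatter.

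Cell type markers moved with the clock genes in part. Arntl had r = 0.57 with the score of 6 macrophage markers (adjusted p = 0.00012), 0.45 with endothelium (0.00936) and 0.45 with basal epithelium (0.00936), and -0.49 with the ribosomal RNA share (0.00396). On rescaled TPM these were 0.23, 0.03, -0.06 and -0.24, and none passed. Per1 passed with the macrophage (0.42), endothelium (0.42), lymph node and B cell (0.39), white adipocyte (0.39) and basal epithelium (0.37) scores. On rescaled TPM none of these relations of Per1 passed either. Dbp had r = 0.35 with the 10 skeletal muscle markers (adjusted p = 0.0351), 0.44 on rescaled TPM (0.0176) and 0.19 with group means subtracted (0.477). Arntl with muscle had 0.06. The part of muscle, which has its own clock, in the levels of Dbp was not tested.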

How the data were processed

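Per the submitters' processing notes, reads were handled with FastQC 0.11.9, Trim Galore 0.6.5, STAR 2.7.9a and RSEM 1.3.1 on mm10, and the annotation release is not given in the sources used here. Per the labels' protocols, stranded libraries came from total RNA after ribosomal RNA removal, with single-end reads of 75 bp. The authors deposited TPM, which keep no depth, so no counting interval is given.

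Genes reaching 1 TPM in 3 or more libraries were taken as log2(TPM + 1) and fitted with limma 3.58.1 (R 4.3.3), 1 mean per group over 48 libraries with an intensity trend, two-sided, Benjamini-Hochberg adjusted within a comparison. Fold changes on that scale understate changes of scarce genes. Pair correlations used two-sided permutation tests (100000 resamples, and fewer when each library was left out in turn). Scripts were tested on simulated data.

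Alternatives were a pseudocount of 0.1, no filter, rescaled TPM, a replicate block, the compared groups alone, leaving out each library, and leaving out libraries with over 10% ribosomal RNA copies. Rescaling together with group means, and the alternatives for Per1 with the lists, were added after seeing the data. The members and lists were chosen with earlier results of these data known. Genes named are all 10 members, list genes that passed or else the 2 most abundant, and the 5 nearest and 5 farthest patterns. Other genes in the text (Ciart, Nr1d2, Bhlhe41 and the like) were named after their values were seen. Some list genes are not reported here.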

Additional observations from a re-analysis of the deposited data

How the results depend on the processing

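Of 292 settings over the 20 comparisons, 5 called any clock gene. Without the high-ribosomal-RNA libraries 1 was called for Esr1 against CYP19A1 in uninduced glands, among 2569 genes. With the compared groups alone 1 was called in long-induced glands, among 1594. Leaving out single libraries gave 0 to 3 calls for 1 week of CYP19A1 induction at 12 months (3 among 12421 genes). For uninduced CYP19A1 glands at 24 against 12 months it also gave 0 to 3 (3 among 3374). It gave 0 to 1 for the model difference after 1 week (1 among 6988) and 0 to 5 for the F test (5 among 9367). On rescaled TPM the F test gave 2, among 7298 genes. Without the high-ribosomal-RNA libraries the sign turned for Per1 (-0.0154, CYP19A1 at 18 against 12 months) and for Cry2 (-0.0682) and Nr1d1 (-0.0219, both at 24 against 12 months). In these comparisons replicate 2 was then the only 12-month library. Arntl with Per1, 0.04 as reported, was -0.4054 on rescaled TPM, -0.0228 with group means subtracted, -0.3646 without the high-ribosomal-RNA libraries, -0.0633 without the 2 farthest libraries and -0.5799 on rescaled TPM with group means subtracted. On rescaled TPM, without the high-ribosomal-RNA libraries, and on rescaled TPM with group means subtracted, Arntl with Nr1d1 was -0.0712, -0.1383 and -0.012, and Arntl with Tef was -0.5403, -0.6998 and -0.5296. With group means subtracted Arntl lost its calls with Per2 (-0.3755), Per3 (-0.3518) and Dbp (-0.3421). Arntl with Per3 was -0.2933 and lost at a pseudocount of 0.1. Clock with Dbp was -0.5148 on rescaled TPM, 0.0039 with group means subtracted and -0.5409 with both, and Cry1 with Dbp was -0.0379 with both. Leaving out single libraries, r ran from -0.1127 to 0.0897 for Arntl with Per1, -0.4407 to -0.2983 with Per2, -0.4746 to -0.2677 with Per3, 0.1816 to 0.322 with Nr1d1 and -0.4353 to -0.2842 with Dbp, and from -0.1404 to 0.0381 for Clock with Dbp. The causes were not tested, beyond the fewer libraries. Replicate numbers did not pair the samples: over 360 pairs of groups' same-numbered libraries the median correlation of deviations was 0.0081 and 109 exceeded 0.1. With the replicate block, which for pairs also subtracts group means, Arntl with Per1 was -0.0305. Arntl with Per3 was -0.3596 there and not called (adjusted p = 0.0698). Arntl stayed called with Per2 (-0.3818) and Dbp (-0.3592), unlike with group means alone subtracted. Against the main setting no other call changed. TPM keep no depth, so what depth limits is unknown.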
